A study of Mus musculus with 4 samples.

Results

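The 10 genes described here encode the insulin receptor and the proteins that carry its signal to glucose uptake: Insr, Irs1, Irs2, Akt1, Akt2, Tbc1d4, Slc2a4, Slc2a1, Pde3b and Foxo1. They were taken by symbol from the 39179 genes of a normalized count table, and each matched 1 row. The table holds RNA from whole epididymal white adipose tissue, the fat pad beside the epididymis, of mice on a mixed genetic background. It has 2 libraries labelled Nck2 mutant (KO) and 2 labelled wild type (WT), and Nck2 encodes an adaptor that links tyrosine-phosphorylated receptors to the actin cytoskeleton. The age of the mice, the part of Nck2 that was altered and any driver or clone behind the mutation do not appear in the sources used here. Nothing in the labels ties each library to its own animal. The p-values therefore cover only the spread between these libraries, which may be technical.

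Insulin binds a receptor tyrosine kinase, which phosphorylates the insulin receptor substrates and through them switches on phosphoinositide 3-kinase and the AKT kinases. In fat cells AKT phosphorylates TBC1D4 (AS160), a Rab GTPase-activating protein that otherwise holds vesicles carrying the glucose transporter GLUT4 (Slc2a4) inside the cell. The same pathway restrains lipolysis through the phosphodiesterase PDE3B and keeps the transcription factor FOXO1 out of the nucleus. GLUT1 (Slc2a1) is the transporter that most cell types use for basal glucose uptake.

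Depth was 37980391 and 33880872 reads assigned to genes in KO replicates 1 and 2, and 31831904 and 34056187 in WT replicates 1 and 2. The 10 genes had between 462 and 16739 reads per library. Values are normalized counts, that is, reads divided by a size factor per library. Each log2 fold change is the KO mean minus the WT mean of log2(normalized count + 1), given with its standard error (SE). Testing used limma, with Benjamini-Hochberg adjustment across the 16710 genes whose mean was 10 or more. A gene was called at an adjusted p of 0.05 or less.

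Marker transcripts of several cell types differed between the groups. The counts below are to be read beside the 22.4% of all genes tested that were called higher in KO and the 24.4% called lower. Of 20 mature adipocyte genes, 17 were higher in KO, 0 were lower and 3 were not called. Their summed level was 2342260 and 2669600 normalized counts in the KO libraries, against 988029 and 671109 in the WT libraries. Of 17 tested epididymis and male tract genes, 13 were lower in KO and 0 higher. Sums over all 20 listed were 143 and 133 in KO against 494177 and 421984 in WT. Crisp1 alone gave 108 and 93.7 of these in KO and 343811 and 334537 in WT. Defb2, Lcn5, Lcn8, Lcn9, Pax2, Svs4 and Gpx5 of that list had no read in either KO library, and Lcn8 and Lcn9 were not tested. The WT libraries also differed: Svs4 had 11735 and 6.51 normalized counts, Lcn5 1825 and 94.9, and Gpx5 12.2 and 207. Lcn8 had 1.02 and 23.3 in WT and Lcn9 0 and 22.3. Defb2 (207 and 232) and Pax2 (1517 and 1929) were closer between the WT libraries. Of 12 smooth muscle genes 11 were lower in KO, with sums of 43106 and 48960 in KO against 585445 and 770858 in WT. All 13 macrophage genes and 9 of 12 endothelial genes were higher in KO, with macrophage sums of 70080 and 65296 against 33338 and 32522 in WT and endothelial sums of 63192 and 72784 against 41545 and 34148 in WT. Nck2 itself was at 1076 and 947 in KO and at 1279 and 1667 in WT (log2 fold change -0.53, limma adjusted p = 0.0509). It was called lower with DESeq2 (adjusted p = 0.0184), with a pseudocount of 5 (limma adjusted p = 0.0495) and in the authors' deposited table (adjusted p = 0.0208). A total over its exons cannot check the labels. The part of these marker differences in the values below was not tested. In whole tissue, fewer cells of a type and less RNA per cell cannot be told apart.

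Of the 10 insulin signalling genes, Irs2, Akt2, Tbc1d4, Pde3b and Foxo1 were higher in KO and Slc2a1 was lower. Insr, Irs1, Slc2a4 and Akt1 were not called. Over all genes tested, 22.4% were called higher and 24.4% lower, so 46.7% were called in all, against 6 of these 10. The median log2 fold change of the 10 was 0.63, beside -0.01 over all genes tested and 1.68 over the mature adipocyte list. In 8 of the genes both KO libraries lay above both WT libraries, and in 2 both lay below. Groups that do not overlap were common, at 79.5% of all genes tested (38.9% with KO above and 40.6% with KO below).

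**Figure D1:**
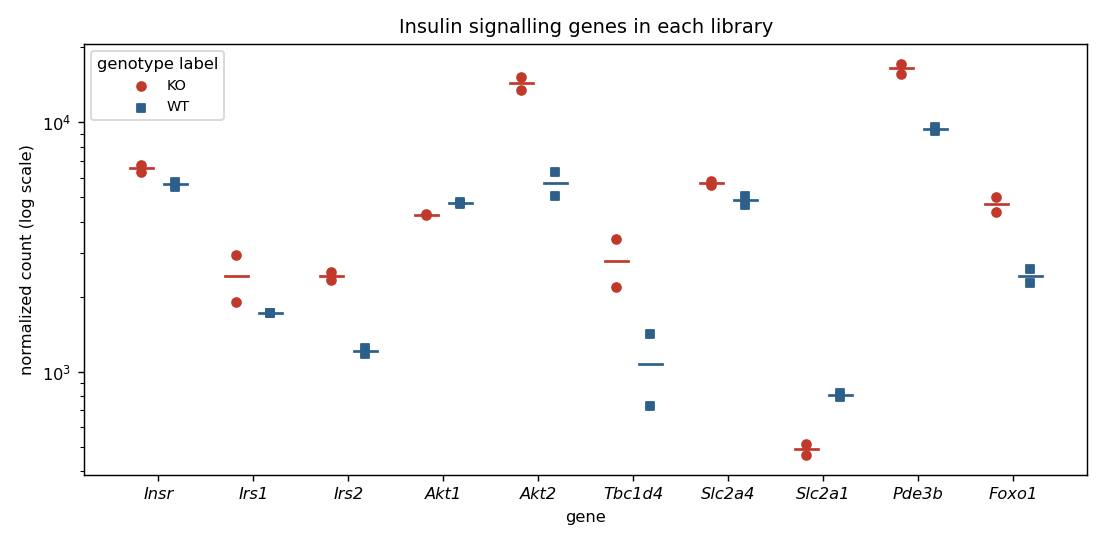
Normalized count (log axis) of each of the 10 genes in each library, with KO circles left of WT squares and a bar at each group's mean. No gene's KO and WT libraries overlapped, and Akt2 had 13441 and 15247 in KO against 6348 and 5047 in WT.

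The receptor came first in the pathway and differed little. Insr (GRCm38 chromosome 8, 3122061 to 3279617, minus strand) had 6772 and 6299 normalized counts in KO libraries, against 5773 and 5500 in WT libraries. Both KO libraries were higher, by a log2 fold change of 0.21 (SE 0.07, 95% interval 0.01 to 0.41), which was not called (limma adjusted p = 0.0769). Its relative Igf1r, the receptor for insulin-like growth factor 1, had 297 and 279 in KO and 589 and 750 in WT, and was lower by a log2 fold change of -1.20 (SE 0.15, limma adjusted p = 0.0054). Igf1r was not called without WT replicate 2 (-1.03, limma adjusted p = 0.0613). Per kilobase of exon, Insr made up 96.5 ± 0.0232% of the sum of both receptors in KO and 91.1 ± 1.65% in WT (SD, n = 2 each).

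The receptor substrates were less alike. Irs2 (chromosome 8, 10984681 to 11008458, minus strand), a docking protein through which the receptor recruits phosphoinositide 3-kinase, had 2517 and 2335 in KO and 1241 and 1183 in WT. The 2 KO libraries were close to each other and 2.00-fold above WT, a log2 fold change of 1.00 (SE 0.07, limma adjusted p = 0.0017). This call held in every fit that left out 1 library, with log2 fold changes of 0.95 to 1.05 over all alternatives run. Irs1 (chromosome 1, 82233101 to 82291416, minus strand), the other main substrate of fat cells, had 2939 and 1899 in KO and 1728 and 1714 in WT. The KO libraries disagreed: replicate 2 lay near WT and replicate 1 well above it. The log2 fold change was 0.46 (SE 0.22, 95% interval -0.14 to 1.05) and was not called (limma adjusted p = 0.159). Irs1 was called without KO replicate 2, at 0.77 (limma adjusted p = 0.0104), and stood at 0.14 without KO replicate 1 (limma adjusted p = 0.248). Exons of Irs1 overlap those of Gm9747 on the opposite strand over 30.9% of their length. Whether reads were counted by strand is not stated in any source used here, so reads of the pair cannot be told apart; Gm9747 itself had 0 and 3.35 normalized counts in KO and 1.02 and 1.86 in WT.

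The AKT kinase genes differed from each other. Akt2 (chromosome 7, 27591552 to 27640826, plus strand), the isoform most tied to insulin-stimulated glucose uptake in fat and muscle, had 13441 and 15247 in KO and 6348 and 5047 in WT. Both KO libraries were well above either WT library, with a log2 fold change of 1.34 (SE 0.14, limma adjusted p = 0.0037). Leaving out WT replicate 2, the lower of the WT libraries, gave 1.17 with a limma adjusted p of 0.0515. Akt1 (chromosome 12, 112653821 to 112674884, minus strand), the broadly expressed isoform, had 4275 and 4265 in KO and 4695 and 4783 in WT. It was thus slightly below WT in both KO libraries, at -0.15 (SE 0.06, 95% interval -0.31 to 0.01, limma adjusted p = 0.101).

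Downstream of AKT, Tbc1d4 (chromosome 14, 101442360 to 101609191, minus strand) had 2178 and 3409 in KO and 1422 and 726 in WT. Its libraries were the most scattered of the 10 genes within both groups, although KO and WT did not overlap. KO exceeded WT by a log2 fold change of 1.42 (SE 0.40, 95% interval 0.35 to 2.50, limma adjusted p = 0.0451). Its limma adjusted p was 0.0586 without KO replicate 1, 0.147 without KO replicate 2, 0.0752 without WT replicate 1 and 0.204 without WT replicate 2, where the log2 fold change was 1.75, 1.10, 1.91 and 0.94. With edgeR on recovered reads the adjusted p was 0.0528. Of the 6 called genes, it was the only one not called in any fit with a library left out.

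Tbc1d1, a related Rab GTPase-activating protein that is prominent in muscle, was far lower in KO. It had 915 and 1024 in KO and 6002 and 7350 in WT, a log2 fold change of -2.78 (SE 0.13, limma adjusted p = 0.00075). Smooth muscle genes had a median of -4.46 and the skeletal muscle list a median of 0.06 in the same libraries. The part of muscle transcripts in the Tbc1d1 values was not tested. Per kilobase of exon, Tbc1d4 stood at 284 and 444 and Tbc1d1 at 124 and 138 in the KO libraries, whereas in the WT libraries Tbc1d4 stood at 185 and 94.5 and Tbc1d1 at 811 and 993. Tbc1d4 made up 72.9 ± 4.67% of the pair in KO and 13.7 ± 7.01% in WT (SD, n = 2 each).

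GLUT4 itself changed little. Slc2a4 (chromosome 11, 69942539 to 69948188, minus strand) had 5609 and 5802 in KO and 5069 and 4685 in WT. Both KO libraries were higher by a small margin, a log2 fold change of 0.23 (SE 0.07, 95% interval 0.03 to 0.42, limma adjusted p = 0.0626), and it was not called under any alternative run (log2 fold changes of 0.17 to 0.28). Skeletal muscle also uses GLUT4, and striated muscle transcripts were uneven between the KO libraries: Myh4, a fast myosin heavy chain, had 15.0 and 1685 in KO and 3.06 and 0 in WT. Of 14 skeletal muscle genes, 1 was higher in KO (Myh1), 2 were lower (Acta1 and Des) and 11 were not called, with a median log2 fold change of 0.06. Their sum was 1789 and 8566 in KO and 47443 and 55264 in WT. Des, also in the smooth muscle list, gave 746 and 1050 of it in KO and 31543 and 32100 in WT. Acta1 gave 811 and 1955 in KO and 9138 and 13526 in WT. Ckm gave 11.2 and 899 in KO and 3249 and 4914 in WT. Tnnc2 gave 14.1 and 398 in KO and 2836 and 3900 in WT. Of the 14 genes, 7 had a positive log2 fold change. The part of muscle transcripts in the Slc2a4 values was not tested.

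Slc2a1 (chromosome 4, 119108711 to 119137983, plus strand), which encodes GLUT1, was the only one of the 10 genes called lower. It had 463 and 516 in KO and 792 and 821 in WT, so that KO stood at 0.61 of WT, a log2 fold change of -0.72 (SE 0.09, limma adjusted p = 0.0061). It was not called without WT replicate 1 (-0.75, limma adjusted p = 0.0666) or without WT replicate 2 (-0.70, limma adjusted p = 0.0865). Slc2a3, encoding the high-affinity transporter GLUT3, was lower by more: it had 556 and 562 in KO and 3471 and 4471 in WT (log2 fold change -2.81, SE 0.14, limma adjusted p = 0.00084). Slc2a12, which encodes the transporter GLUT12, had 208 and 343 in KO and 410 and 620 in WT and was not called (-0.91, limma adjusted p = 0.0843).

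Both effector genes were higher in KO. Pde3b (chromosome 7, 114415281 to 114539251, plus strand), whose product breaks down cyclic AMP when insulin acts on fat cells, had 15684 and 17210 in KO and 9578 and 9194 in WT. Both KO libraries were well above WT, by a log2 fold change of 0.81 (SE 0.09, limma adjusted p = 0.0038). Without WT replicate 1 the value was 0.84 (limma adjusted p = 0.0501) and without WT replicate 2 it was 0.78 (limma adjusted p = 0.0646). Its relative Pde3a, best known from heart and platelets, had 168 and 181 in KO and 322 and 333 in WT (-0.91, SE 0.12, limma adjusted p = 0.0064), and it too was not called without WT replicate 1 (limma adjusted p = 0.0730) or WT replicate 2 (limma adjusted p = 0.0930). Foxo1 (chromosome 3, 52268336 to 52353221, plus strand) had 4364 and 5006 in KO and 2594 and 2268 in WT. That was a log2 fold change of 0.95 (SE 0.11, limma adjusted p = 0.0045), or 0.85 (limma adjusted p = 0.0674) without WT replicate 2. Foxo3, a family member with many of the same targets, had 1686 and 1702 in KO and 1968 and 1902 in WT and was not called (-0.19, limma adjusted p = 0.0610), although edgeR's quasi-likelihood test gave an adjusted p of 0.0483.

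**Figure D2:**
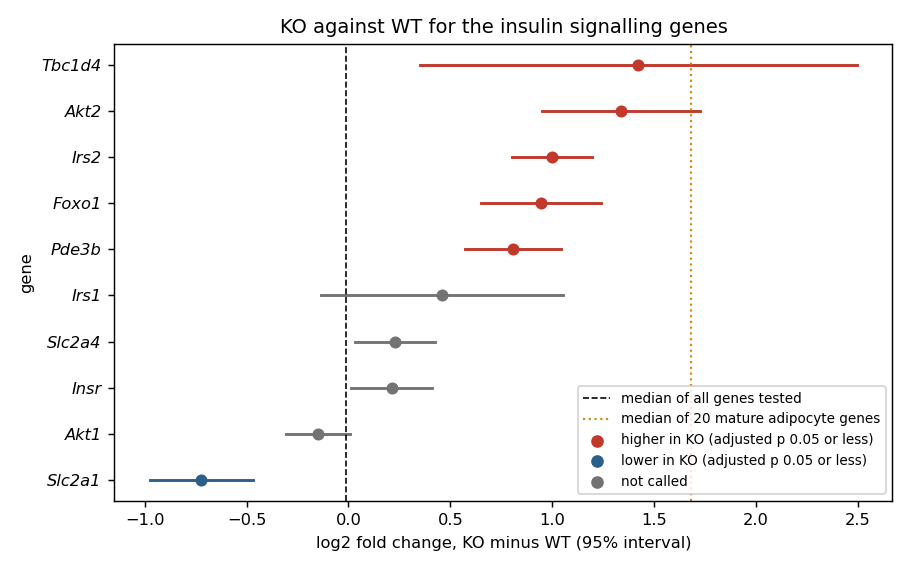
Log2 fold change (KO minus WT) of each gene with its 95% interval from limma, coloured by call, beside the median of all genes tested (-0.01, dashed) and of 20 mature adipocyte genes (1.68, dotted). The intervals of Tbc1d4 and Akt2 reached the adipocyte median, and those of the other 8 genes lay below it.

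The authors' deposited table gave the same 6 calls at an adjusted p of 0.05 or less, 5 higher and 1 lower. In the authors' deposited table the adjusted p was 0.0933 for Slc2a4, 0.0942 for Irs1, 0.114 for Insr and 0.234 for Akt1.

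Promoter windows from RefSeq (GRCm38.p6, 250 bases before a gene's start to 50 after it) were found for Irs1, Irs2, Akt1, Akt2, Tbc1d4, Slc2a1 and Foxo1. Insr, Slc2a4 and Pde3b had none in that table. Shown are the called genes that had 1 window whose transcribed bases also stand in a GENCODE transcript: Tbc1d4 and Foxo1, which were higher in KO, and Slc2a1, which was lower. Capitals mark matches, on either strand, to the GC box (GGGCGG, bound by SP factors) and the CCAAT box (CCAAT), and 2 of the GC boxes of Foxo1 overlap.
Tbc1d4, chr14:101609142-101609441, minus strand: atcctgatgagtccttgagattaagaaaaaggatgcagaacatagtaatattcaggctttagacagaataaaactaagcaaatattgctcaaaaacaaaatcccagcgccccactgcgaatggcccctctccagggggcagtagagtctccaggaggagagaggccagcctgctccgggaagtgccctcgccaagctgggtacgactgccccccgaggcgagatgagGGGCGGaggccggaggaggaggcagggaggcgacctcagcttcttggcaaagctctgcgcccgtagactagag
Foxo1, chr3:52268087-52268386, plus strand: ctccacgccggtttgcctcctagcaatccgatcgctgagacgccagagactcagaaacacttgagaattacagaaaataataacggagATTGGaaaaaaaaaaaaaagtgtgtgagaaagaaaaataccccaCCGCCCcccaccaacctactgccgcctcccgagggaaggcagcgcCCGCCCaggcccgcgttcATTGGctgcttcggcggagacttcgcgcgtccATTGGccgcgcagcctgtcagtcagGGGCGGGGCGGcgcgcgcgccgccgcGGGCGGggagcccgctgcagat
Slc2a1, chr4:119108495-119108794, plus strand: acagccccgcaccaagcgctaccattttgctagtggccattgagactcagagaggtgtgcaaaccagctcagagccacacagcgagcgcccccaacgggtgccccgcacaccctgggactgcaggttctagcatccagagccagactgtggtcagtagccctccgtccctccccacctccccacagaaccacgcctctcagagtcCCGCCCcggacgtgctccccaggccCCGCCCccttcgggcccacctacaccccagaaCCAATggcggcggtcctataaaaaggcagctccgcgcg

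With Slc2a1 the only lower gene shown, the letters cannot tell whether motifs go with direction, and no conclusion is drawn. Foxo1 had 5 GC boxes and 3 CCAAT boxes, Slc2a1 had 2 GC boxes and 1 CCAAT box, and Tbc1d4 had 1 GC box, which begins 23 bases before the start. Of all 32817 promoter windows, 35.6% held a GC box and 37.4% a CCAAT box. The E-box CACGTG occurred in Irs1, 115 bases before the RefSeq start, and in Irs2, 44 bases before the RefSeq start, and in 7.15% of all windows. In both windows the transcribed bases did not all stand in a GENCODE transcript. The Irs2 window (11008880 to 11009179) lies outside the gene span given above. The FOXO core GTAAACA occurred in 1 of the 2 windows of Akt1, 161 bases before the start, and in 3.65% of all windows. The DR1 element, the direct repeat bound by PPAR and RXR pairs, occurred in none of the 11 windows and in 0.0396% of all windows. A match is a run of letters and was not tested as a binding site.

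Levels were compared between genes per kilobase of annotated exon. In KO libraries the order of mean levels was Akt2 (2011 ± 179 normalized counts per kb), Pde3b (1805 ± 118), Slc2a4 (1640 ± 39.4), Akt1 (1042 ± 1.85), Foxo1 (541 ± 52.3), Insr (475 ± 24.4), Irs2 (384 ± 20.3), Tbc1d4 (364 ± 113), Irs1 (265 ± 80.4) and Slc2a1 (140 ± 10.6; SD, n = 2). The libraries of Akt2 and Pde3b overlapped, as did those of Irs2 and Tbc1d4 and of Tbc1d4 and Irs1. In WT libraries the order was Slc2a4 (1402 ± 78.1), Akt1 (1156 ± 15.2), Pde3b (1030 ± 29.8), Akt2 (799 ± 129), Insr (410 ± 14.0), Foxo1 (281 ± 26.6), Slc2a1 (230 ± 5.84), Irs2 (192 ± 6.54), Irs1 (188 ± 1.10) and Tbc1d4 (140 ± 64.2). There only Irs2 and Irs1 overlapped among neighbours. Akt2 thus stood first in KO but below Slc2a4, Akt1 and Pde3b in WT, while Slc2a1 stood last in KO and above both substrates in WT. Both orders depend on the annotated exon lengths, and the overlap of Irs1 exons with Gm9747 was not corrected for.

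Of the summed level of Akt1 and Akt2 per kb, Akt2 made up 65.8 ± 2.04% in KO and 40.7 ± 4.22% in WT (SD, n = 2 each). The sum was 2928 and 3179 normalized counts per kb in KO, against 2036 and 1875 in WT. The ratio of Akt2 to Akt1 per kb was 1.81 and 2.05 in KO libraries and 0.777 and 0.607 in WT libraries. Without division by exon length it was 3.14 and 3.57 in KO and 1.35 and 1.06 in WT. The ratio was thus higher in KO on both scales. Akt2 lay below Akt1 in WT only per kb, which depends on annotated exon length (7.131 kb for Akt2, 4.098 kb for Akt1).

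Among 4 glucose transporters, Slc2a4 made up 86.2% and 84.5% of the sum of Slc2a4, Slc2a1, Slc2a3 and Slc2a12 per kb in the KO libraries and 64.5% and 57.5% in the WT libraries. Other transporters are left out of this sum. Of these, Slc2a8 stood at 284 and 332 per kb in KO and 415 and 487 in WT, above Slc2a1 in each library. Slc2a3 made up 4.02 ± 0.118% in KO and 23.8 ± 3.61% in WT (SD, n = 2 each). The summed level was 1870 and 1974 normalized counts per kb in KO and 2259 and 2344 in WT, so the greater share of Slc2a4 went with a lower sum. The ratio of Slc2a4 to Slc2a1 per kb was 12.1 and 11.3 in KO and 6.43 and 5.73 in WT.

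Rodents carry a further substrate, Irs3, which is expressed in adipocytes and was added after its values were seen. Irs3 had 3332 and 2572 normalized counts in KO and 745 and 418 in WT, a log2 fold change of 2.39 (SE 0.32, limma adjusted p = 0.0062, or 0.0528 without WT replicate 2). It made up 66.0 ± 0.607% of the 3 substrates per kb in KO and 38.8 ± 9.16% in WT (SD, n = 2 each). Irs1 and Irs2 together were the smaller part in KO and the larger part in WT, and the ratio of Irs1 to Irs2 per kb was 0.808 and 0.563 in KO and 0.963 and 1.00 in WT. The exon overlap of Irs1 with Gm9747 given above applies here too, and its effect on these shares and ratios was not tested. In FOXO factors the difference was smaller, with Foxo1 at 39.8 ± 0.816% of Foxo1, Foxo3 and Foxo4 in KO and 29.3 ± 2.29% in WT.

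These ratios were also compared on the log2 scale. The KO minus WT difference per gene was 1.49 for Akt2 over Akt1, 0.95 for Slc2a4 over Slc2a1 and -0.54 for Irs1 over Irs2. In each of the 3 ratios the groups did not overlap, and the exact two-sided permutation p was 0.333, the smallest that 2 libraries against 2 allow. Any ratio whose groups do not overlap gives this p, so it adds nothing to the values. Groups did not overlap in 79.5% of single genes tested, and the share over other gene pairs was not computed.

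**Figure D3:**
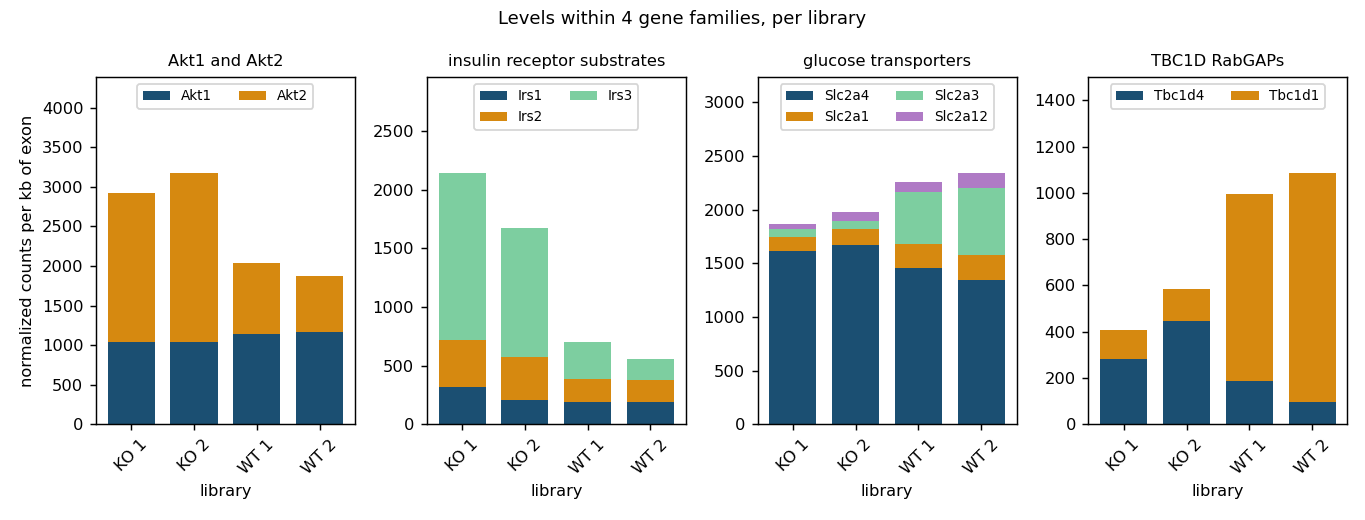
Stacked level per kilobase of exon in each library (KO 1, KO 2, WT 1, WT 2) for Akt1 and Akt2, insulin receptor substrates, 4 glucose transporters and the TBC1D pair. Akt2, Irs3 and Tbc1d4 fill more of the KO bars, and Slc2a3 and Tbc1d1 more of the WT bars.

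The 10 genes were also set against mature adipocyte genes, as a description. The mean log2 level of the 20 adipocyte genes was 16.08 and 16.20 in KO and 14.82 and 14.23 in WT, a difference of 1.62. Subtracting it in each library moves every gene by that difference, which exceeds the log2 fold change of each of the 10 genes, so their lower KO means on this scale follow from the subtraction. Of all genes tested, 96.7% had a lower mean in KO on this scale, and 92.8% had both KO libraries below both WT libraries, as had 9 of the 10 genes. Akt2 was at -2.36 and -2.31 in KO and at -2.19 and -1.93 in WT, a difference of -0.28. Tbc1d4 was at -4.99 and -4.47 in KO and -4.34 and -4.73 in WT, where the groups overlapped (difference -0.19). Slc2a4 was at -3.62 and -3.70 in KO and -2.51 and -2.04 in WT, a difference of -1.39, and Insr differed by -1.40. Slc2a1 differed most, by -2.34, with -7.22 and -7.19 in KO and -5.19 and -4.55 in WT. These values carry no test, and nothing about the 10 genes is read from their direction.

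**Figure D4:**
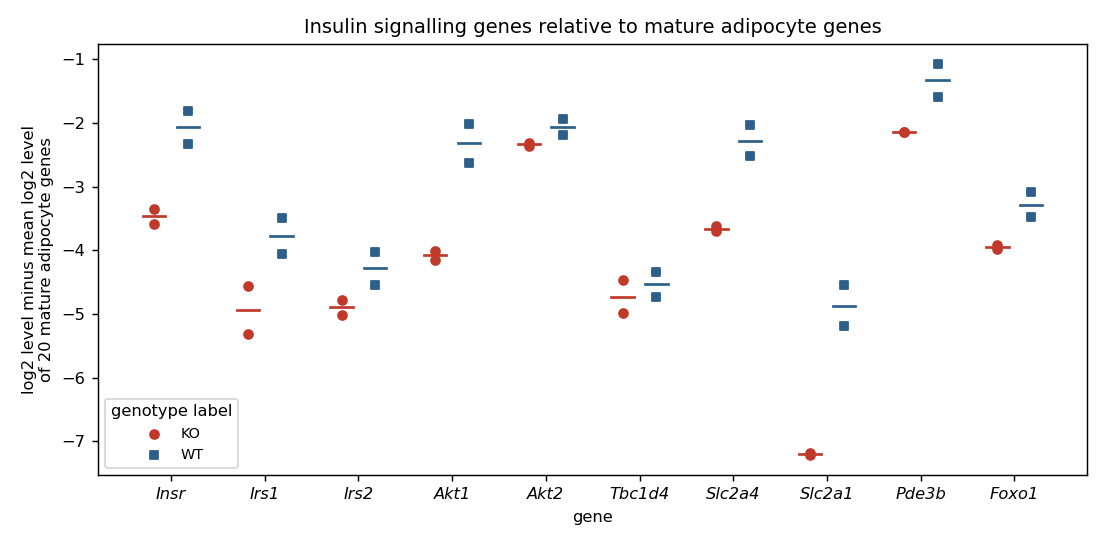
Log2 level of each gene minus the mean log2 level of 20 mature adipocyte genes in the same library, KO circles left of WT squares, with a bar at each group's mean. KO lay below WT for 9 of 10 genes, beside 92.8% of all genes tested, and Tbc1d4 overlapped; heights are not comparable between genes, since they are not per length.

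Other genes of the pathway were called in both directions, at shares to be read against the 22.4% higher, 24.4% lower and 46.7% called in all among genes tested. Of 22 receptor-level genes (adaptors, phosphatases and inhibitors) 6 were higher in KO, 5 lower and 11 not called, so that 50.0% were called, near the share of all genes, with a median log2 fold change of 0.05, in which Irs4, with no read in KO, counts as a lower gene. Grb10, an adaptor that restrains the insulin receptor, had 4488 and 4046 in KO and 2113 and 1787 in WT (1.13, SE 0.11, limma adjusted p = 0.0031). Going the other way, Enpp1, a membrane phosphodiesterase reported to inhibit the receptor, had 127 and 137 in KO and 1615 and 1239 in WT (-3.41, SE 0.16, limma adjusted p = 0.00079). Insrr, the insulin receptor-related receptor, had 3.75 and 4.46 in KO and 76.4 and 85.6 in WT. The male tract and smooth muscle sums given above were lower in the same KO libraries, and their part in these values was not tested.

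Of 29 genes for phosphoinositide 3-kinase, AKT regulation, mTOR and FOXO, 10 were higher in KO, 4 lower and 15 not called (median 0.10), and the 48.3% called was again near the share of all genes. Trib3, a pseudokinase that binds AKT, had 764 and 669 in KO and 183 and 210 in WT (1.86, SE 0.13, limma adjusted p = 0.0016). Eif4ebp1, a translation repressor that mTOR phosphorylates, had 8263 and 8797 in KO and 3787 and 2808 in WT (1.39, SE 0.16, limma adjusted p = 0.0045). Pik3cd, the catalytic subunit found mostly in leukocytes, had 859 and 983 in KO and 532 and 523 in WT (0.80, limma adjusted p = 0.0053). The macrophage list had a median of 1.04 in the same comparison, and Pik3cd was not called without WT replicate 1 (limma adjusted p = 0.0647) or WT replicate 2 (limma adjusted p = 0.0795).

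Of 22 GLUT4 traffic genes 9 were higher in KO, 3 lower and 10 not called (54.5% called, median 0.08). Myo1c, a myosin of GLUT4 vesicle delivery, had 19229 and 19698 in KO and 9492 and 8207 in WT (1.14, SE 0.10, limma adjusted p = 0.0026). Rhoq, the small GTPase TC10, had 8920 and 9817 in KO and 4405 and 3558 in WT (1.24, SE 0.13, limma adjusted p = 0.0035). Stx6, a SNARE of the trans-Golgi network, had 1975 and 2052 in KO and 1344 and 1314 in WT (0.60, limma adjusted p = 0.0035, or 0.0543 without WT replicate 2). Tbc1d1, described above, had the smallest p of this list.

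Of 24 genes of glucose transport and use, 7 were higher in KO, 8 lower and 9 not called (62.5% called, median 0.21). Slc2a3 led this list by p. Slc2a5, the fructose transporter GLUT5, had 4.68 and 6.69 in KO and 181 and 161 in WT (-4.70, SE 0.30, limma adjusted p = 0.0013). Pygl, a glycogen phosphorylase, had 8789 and 9478 in KO and 5375 and 5002 in WT (0.82, limma adjusted p = 0.0031, or 0.0545 without WT replicate 2). Hk3, a hexokinase of myeloid cells, had 384 and 528 in KO and 145 and 121 in WT (1.76, limma adjusted p = 0.0049). Hk3 missed the threshold without WT replicate 1 (limma adjusted p = 0.0594) and without WT replicate 2 (limma adjusted p = 0.0825).

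FOXO1 target genes are known largely from liver. Of 17 tested, 8 were higher in KO, or 1 without WT replicate 2, 3 were lower and 6 were not called (median 0.44). The share over all genes tested was 22.4% higher, and no difference between lists was tested. In this list Igfbp1 had no read in the 4 libraries, where a count of 0 allows up to 3 reads. Bcl6, a transcriptional repressor, had 6996 and 9825 in KO and 1332 and 1120 in WT (2.76, SE 0.19, limma adjusted p = 0.0016, or 0.0516 without WT replicate 2). Pdk4, a kinase that switches off pyruvate dehydrogenase, had 3882 and 3610 in KO and 1199 and 1492 in WT (1.48, SE 0.13, limma adjusted p = 0.0023). Catalase (Cat) had 39272 and 47841 in KO and 16197 and 12078 in WT (1.63, limma adjusted p = 0.0049, or 0.0659 without WT replicate 2). Fbxo32, a ubiquitin ligase of muscle atrophy, was lower, with 543 and 655 in KO and 3442 and 4091 in WT (-2.65, SE 0.14, limma adjusted p = 0.00093). Pnpla2 is in this list and in the adipocyte list.

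**Figure D5:**
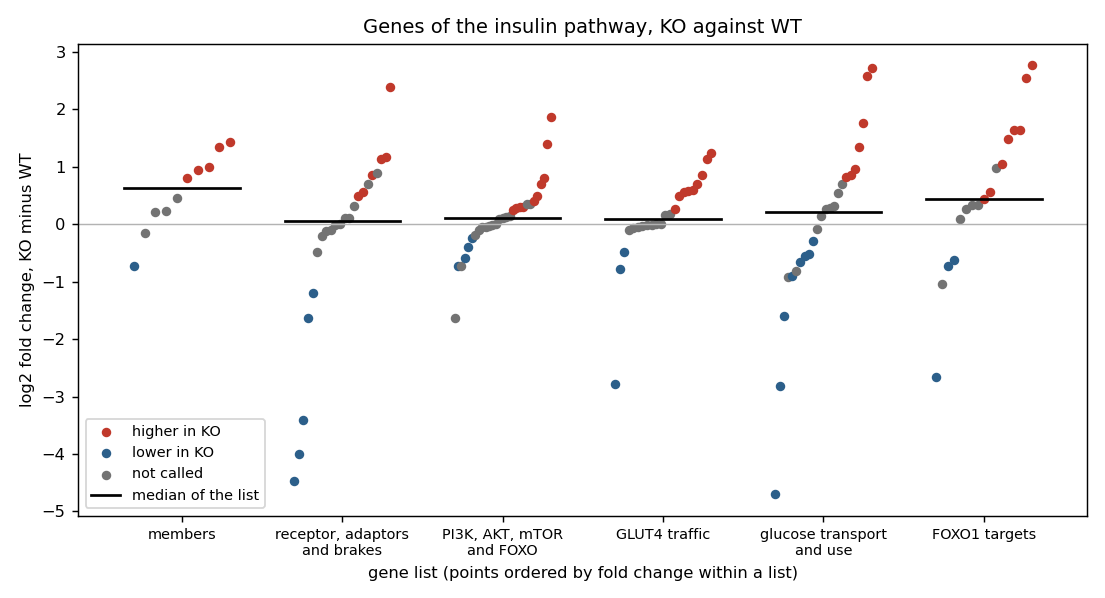
Log2 fold change (KO minus WT) of each tested gene in the 10 members and in 5 lists of the insulin pathway, ordered within a list and coloured by call, with a black bar at each median. Every list held genes called in both directions, and the medians of the 5 lists ran between 0.05 and 0.44.

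The genes whose pattern was most like that of Slc2a4 were Spryd4, Lgmn, Supt3, Mitd1 and Ube2q1. Likeness was the root mean square distance between log2 values centred over the 4 libraries, which was 0.0059 for Spryd4 and 0.0109 for Ube2q1, the fifth. With 4 libraries many genes lie near any profile, and 455 of 14030 candidates were within 0.05. Lgmn, which encodes the lysosomal protease legumain, had 4298 and 4527 in KO and 3910 and 3612 in WT.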

How the data were processed

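RNA of whole epididymal fat pads was measured in 2 KO and 2 WT libraries. Per the labels' protocols, RNA was extracted with Trizol, purified on columns and made into TruSeq libraries. The submitters' processing notes name GRCm38 as the build, and DESeq2 1.4.5, HTSeq 0.5.3, TopHat2 2.0.10 and CASAVA 1.8 as tools, with no role or order. The authors deposited a signal per gene, in which reads are divided by the size factor of their library, and a table of log2 fold changes, standard errors, p-values, adjusted p-values and a score (their test statistic). The library columns of both files were equal (largest difference 0).

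Whole reads were obtained by dividing by the value of 1 read, and 100% of values came out whole within 0.01. Genes with a mean of 10 or more were fitted with limma 3.58.1 (R 4.3.3) after adding 1 and taking log2, letting the prior variance follow the mean level, with Benjamini-Hochberg adjustment. The pseudocount understates changes of low genes. Exon lengths came from GENCODE M21 (GRCm38) and were found for 96.2% of genes. The scripts were tested on simulated data. Results were recomputed with a pseudocount of 0.5 or 5, with the filter removed or raised to 50, with TMM or upper-quartile scaling, with edgeR 4.0.16 and DESeq2 1.42.0 on the whole reads, with limma's robust option, with a replicate block, and leaving out each library. Leaving out 1 leaves a lone sample that is assumed to vary like the other group. Counts without molecular identifiers are not independent molecules, so floors cover counting error only.

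The 10 genes, the lists and the tests were chosen with earlier results of these data known. Named genes are the 10, Nck2, the 4 of each pathway list with the smallest p, paralogs chosen by name (Igf1r, Slc2a3, Slc2a12, Foxo3, Pde3a and Tbc1d1) and the 5 genes nearest to Slc2a4, and some of the genes so chosen are not reported here. Irs3, Foxo4, Gm9747, Myh4, Acta1, Ckm, Tnnc2, Slc2a8 and the genes of the closing observations were named after their values were seen. So were Crisp1 and the male tract genes without a read in KO.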

Additional observations from a re-analysis of the deposited data

How the results depend on the processing

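Among the 10 genes, 5 were higher and 1 lower with all libraries, and 1 to 5 and 0 to 1 with a library left out. Irs2, Insr, Slc2a4 and Akt1 kept their side of the threshold in all 14 alternatives, and all 10 kept their direction. Leaving out WT replicate 2 left 1 higher (Irs2) and 0 lower, and leaving out WT replicate 1 left 3 and 0. These fits have fewer samples and degrees of freedom. Over all genes tested the higher calls numbered 3735, or 650 to 2849 with a library left out, and the lower calls 4074, or 1163 to 3477. Of the calls 47.8% were higher, against 35.9% without WT replicate 2. In the same fits the higher calls ran from 1 to 6 for receptor-level genes, 2 to 7 for the kinase and FOXO list, 2 to 8 for GLUT4 traffic, 2 to 4 for glucose transport and use and 1 to 7 for FOXO1 targets. The lower calls ran from 2 to 5, 0 to 3, 1 to 3, 3 to 8 and 1 to 3 in that order. With no filter the kinase and FOXO list had 2 lower in place of 4, and with a mean of 50 or more the receptor-level list had 3 lower in place of 5, Insrr and Irs4 then being untested. For the first of these the cause was not tested.

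Same-numbered KO and WT libraries did not deviate together (correlation of deviations -0.009 over 16710 genes). With 2 libraries per group this check cannot exclude a shared batch. With the replicate number as a block, 2737 genes were higher and 3339 lower, 4 of the 10 genes were higher (Tbc1d4 had a limma adjusted p of 0.0846), the kinase and FOXO list had 6 higher in place of 10 and glucose transport and use 4 in place of 7. Slc2a12 passed with the block (limma adjusted p = 0.0172), with DESeq2 (adjusted p = 0.0329) and without KO replicate 2 (limma adjusted p = 0.0484). Tbc1d4 did not pass with no filter (limma adjusted p = 0.0504). On recovered reads edgeR called 3503 genes higher and 4070 lower, and DESeq2 3529 and 3931. Each scaling moved the median of all genes by under 0.1. The 3 ratios were recomputed with both other pseudocounts and per kilobase, and the levels relative to adipocyte genes with the list's median, with no change of direction; neither was recomputed with a library left out. The lowest count of the 10 genes was 462 reads, and the effect of depth was not tested.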

Other observations

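The genes given here were picked after their values were seen, so they stand for no group. Pck1, whose enzyme feeds glycerol synthesis in fat cells, had 101016 and 89623 normalized counts in KO and 27846 and 9457 in WT (log2 fold change 2.55, SE 0.54, limma adjusted p = 0.0219). Pfkfb3, which raises the flux of glycolysis, had 53932 and 58433 in KO and 15688 and 5638 in WT (2.58, SE 0.51, limma adjusted p = 0.0179). WT replicate 2 was the lower of the WT libraries in both. Without WT replicate 2, Pck1 was at 1.77 (limma adjusted p = 0.0606) and Pfkfb3 at 1.84 (limma adjusted p = 0.0441). Without WT replicate 1, Pck1 was at 3.33 (limma adjusted p = 0.0300) and Pfkfb3 at 3.32 (limma adjusted p = 0.0260). Without KO replicate 1 the limma adjusted p was 0.0764 for Pck1 and 0.0594 for Pfkfb3, and without KO replicate 2 it was 0.0672 for Pck1 and 0.0653 for Pfkfb3. Lnpep, the aminopeptidase that travels in GLUT4 vesicles, had 736 and 648 in KO and 397 and 363 in WT (0.86, SE 0.11, limma adjusted p = 0.0060), or a limma adjusted p of 0.0584 without WT replicate 1 and 0.0815 without WT replicate 2. Irs4, a substrate of few tissues, had 0 reads in both KO libraries, where a count of 0 allows up to 3 reads, and 19.4 and 23.3 normalized counts in WT. Foxo4 had 1939 and 2184 in KO and 1428 and 1512 in WT (0.49, limma adjusted p = 0.0138), or a limma adjusted p of 0.106 without WT replicate 1 and 0.0995 without WT replicate 2.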
